A study of Homo sapiens with 4 samples.

Results

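The genes described here are 48 genes of the interferon response, namely sensors of foreign RNA and DNA, the factors and interferons they switch on, and interferon-stimulated genes. They were taken by symbol from a list that was chosen with earlier results of these data known. All 48 were found among the 58233 genes of the count table. The study treated MIA PaCa-2 and PANC-1 cells, established human pancreatic cancer lines labelled as wild type, for 24 h with cannabichromene (CBC), a non-psychotropic cannabinoid of hemp, or with PBS as the control. MIA PaCa-2 cells received 35 µM CBC and PANC-1 cells 30 µM CBC by the study's methods, which speak of a vehicle control and state that CBC was dissolved in acetonitrile. Polyadenylated RNA was sequenced in 1 library for each line and treatment, 4 libraries in all, so the dose differs between the lines and differences within either of them have no replicate check. Nothing states how many cultures a library came from.

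In this pathway, RNA of foreign form binds the cytosolic helicases RIG-I and MDA5, which signal through MAVS on mitochondria to the factor IRF3. IRF3 switches on the interferon genes IFNB1 and IFNL1 and can act on some effector genes directly. Secreted type I interferon binds the receptor chains IFNAR1 and IFNAR2, and the kinases JAK1 and TYK2 then activate a complex that holds STAT2 and IRF9 and binds the interferon-stimulated response element (ISRE) in front of its target genes. Many of these targets block viral RNA, translation or entry.

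The libraries held 21742775 to 27903667 counts on genes, and a count of 0 allows a level of up to 0.110 to 0.135 CPM (counts scaled by library size), the limit of 3 counts. Keratin genes KRT8, KRT18 and KRT19 of epithelial cells were read in all 4 libraries, with a summed level of the 6 epithelial markers between 1206 and 3476 CPM. The epithelial markers EPCAM and CDH1 were absent or nearly so in MIA PaCa-2 cells, with 0 and 1 counts of EPCAM and no count of CDH1 in its PBS and CBC libraries, against 264 and 250 counts of EPCAM in PANC-1 cells. Of 8 markers of immune cells that make or answer interferon, 6 stayed under 1 CPM in every library, and their summed level was 5.67 and 1.09 CPM in PBS and CBC MIA PaCa-2 cells and 3.83 and 4.79 CPM in PANC-1 cells. PTPRC, CD3E and CLEC4C, which define leukocytes, T cells and plasmacytoid dendritic cells, had no count in any library. The monocyte marker CD14 had 123 and 18 counts in MIA PaCa-2 cells and 32 and 2 in PANC-1 cells, and NCAM1, which marks natural killer and neural cells, had 43 and 106 in PANC-1 cells alone. Their part in the results was not tested.

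In MIA PaCa-2 cells 3 of the 6 sensors and adaptors tested (the helicases IFIH1, RIGI and DHX58), 3 of the 4 genes of the ISG15 system, 3 of the 4 IFIT genes and the OAS-like gene OASL were called higher in the CBC library, while all 3 IFITM genes were called lower. In PANC-1 cells few of the genes differed by as much. Within a line, genes with 1 CPM or more in either library were tested, and a gene was called when its log2 fold change (CBC over PBS, scaled by the trimmed mean of M-values, prior count 2) lay above 1 or below -1. The MIA PaCa-2 libraries gave 40 of the 48 genes tested, of which 19 were called higher, beside 11.5% of all 14001 genes tested in that line. Another 3 were called lower, beside 8.97% of all genes. In PANC-1 cells 35 genes were tested, with 6 called higher beside 7.71% of all 14091 genes, and 4 called lower beside 7.03%. The median log2 fold change of the genes tested was 0.82 in MIA PaCa-2 cells, where the median over all genes was -0.01, and 0.08 in PANC-1 cells, where it was 0.02.

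Of the 40 genes tested in MIA PaCa-2 cells, 6 passed the filter through the CBC library alone and therefore had to be higher there. These were IFNL1, HERC5, IFI44, OAS2, RSAD2 and SAMD9. Among the 34 genes at 1 CPM or more in both MIA PaCa-2 libraries, 13 were called higher, beside 8.18% of the 12708 genes that pass this filter, and 3 lower, beside 7.49%. In PANC-1 cells IFIT3 passed through the CBC library alone and had to be higher there. OAS1 and OAS2 passed through the PBS library alone and had to be lower. Under 1 CPM in all 4 libraries were TLR3, IFNB1, IFI27, IFI44L, XAF1 and CMPK2, of which IFNB1 and IFI44L had no count at all. The other 4 had at most 15 counts in a library, with 10, 15, 0 and 0 counts of TLR3, an endosomal sensor of double-stranded RNA, in the order MIA PaCa-2 PBS and CBC, then PANC-1 PBS and CBC.

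**Figure D1:**
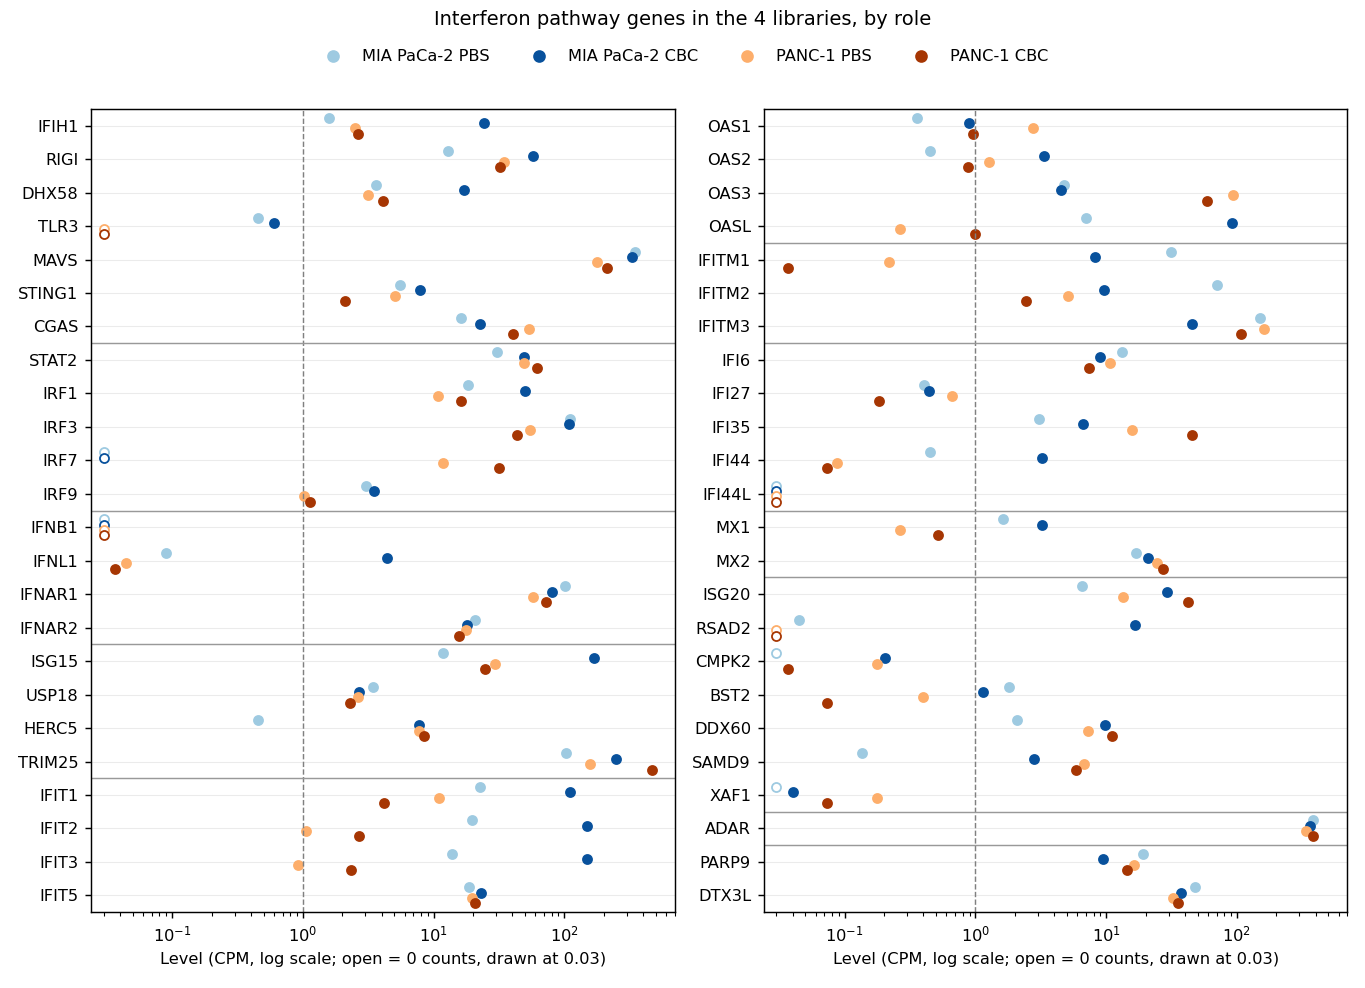
Level of each of the 48 genes in the 4 libraries, in CPM on a log axis, with 1 point for each library, genes grouped by role, and open circles for genes with 0 counts. In MIA PaCa-2 cells IFIH1, ISG15, HERC5, IFIT1, IFIT2, IFIT3, OASL and RSAD2 lie well to the right in the CBC library and the 3 IFITM genes to the left, while in PANC-1 cells the PBS and CBC points mostly lie close together.

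Across both lines, CBC was tested against PBS with edgeR's quasi-likelihood test on 16380 genes, with the cell line as a block and adjusted p-values by Benjamini-Hochberg over all of them. Of the 42 genes of the list in this test, 5 were called at an adjusted p under 0.05, all higher after CBC, beside 1.92% of all genes called higher and 2.12% called lower. They were TRIM25, OASL, ISG20, IFIT2 and IFIT3. An unadjusted p under 0.05 in this test was reached by 14 of the 42, beside 3385 of all 16380 genes. This test has 1 residual degree of freedom, and without the block for the cell line it called none of the 42 genes, with 2 of them and 355 of all genes at an unadjusted p under 0.05.

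Promoters of these genes are shown because many of them carry the ISRE. Its core is GAAANNGAAA, read as TTTCNNTTTC on the opposite strand, and cores may overlap. Promoter windows of 250 bases before to 50 bases after the start were given by RefSeq on GRCh38.p14 for 36 of the 48 genes. The core was found in 23 of the 36 (63.9%), against 4.38% of the 27305 genes in the promoter table. It was found in 11 of the 15 genes called higher in MIA PaCa-2 cells, in both genes called lower that the table holds (IFITM1 and IFITM3), and in 7 of the 12 tested there and not called. The gamma-activated site TTCNNNGAA, a palindrome of the interferon gamma response, was in 11 of the 36 (30.6%) and in 9.38% of all genes. A match of letters is a description and not a measurement of binding. The stretches upstream of the start that hold the cores, in the direction of the gene with the cores in capitals, are shown for genes that were higher, lower or not called after CBC.
ISG15 (chr1:1013374-1013409, + strand): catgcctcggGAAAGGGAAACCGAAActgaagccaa
HERC5 (chr4:88456984-88457064, + strand): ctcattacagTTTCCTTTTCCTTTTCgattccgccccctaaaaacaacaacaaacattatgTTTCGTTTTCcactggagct
IFIT1 (chr10:89392497-89392539, + strand): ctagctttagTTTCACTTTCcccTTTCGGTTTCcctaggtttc
IFIT3 (chr10:89327831-89327894, + strand): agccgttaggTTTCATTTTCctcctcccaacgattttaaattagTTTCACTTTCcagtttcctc
IFIT5 (chr10:89414513-89414567, + strand): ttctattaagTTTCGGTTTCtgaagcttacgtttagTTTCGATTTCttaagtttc
OAS3 (chr12:112938321-112938473, + strand): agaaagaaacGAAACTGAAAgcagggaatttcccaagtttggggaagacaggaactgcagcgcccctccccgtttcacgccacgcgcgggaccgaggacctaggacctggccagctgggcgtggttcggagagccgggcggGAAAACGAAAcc
SAMD9 (chr7:93118096-93118125, - strand): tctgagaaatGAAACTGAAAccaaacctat
DDX60 (chr4:168318786-168318850, - strand): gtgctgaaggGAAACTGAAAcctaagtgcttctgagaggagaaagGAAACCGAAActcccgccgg
IFNL1 (chr19:39296183-39296218, + strand): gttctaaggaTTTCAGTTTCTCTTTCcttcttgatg
IFI6 (chr1:27672266-27672358, - strand): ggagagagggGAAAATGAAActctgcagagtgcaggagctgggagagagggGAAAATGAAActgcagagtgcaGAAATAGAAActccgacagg
IFITM1 (chr11:313990-314019, + strand): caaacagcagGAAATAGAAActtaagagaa
IFITM3 (chr11:320876-320922, - strand): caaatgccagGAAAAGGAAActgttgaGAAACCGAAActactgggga
ISG15, HERC5, IFIT1, IFIT3, SAMD9, DDX60 and IFNL1 of this set were called higher in MIA PaCa-2 cells, IFITM1 and IFITM3 lower, and IFIT5, OAS3 and IFI6 neither.

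Among the sensors, IFIH1 is the gene of MDA5, the helicase for long double-stranded RNA. It had 35 and 599 counts in PBS and CBC MIA PaCa-2 cells and 57 and 72 counts in PANC-1 cells. The CBC library of MIA PaCa-2 stood alone above the other 3, with a log2 fold change of 3.87 (95% counting interval 3.45 to 4.48), while in PANC-1 cells the log2 fold change was 0.07 (-0.45 to 0.60). RIGI, the helicase for short RNA with a triphosphate end, had 284 and 1417 counts in MIA PaCa-2 cells and 786 and 883 in PANC-1 cells. Its log2 fold change was 2.16 (1.98 to 2.35) in MIA PaCa-2 cells against -0.10 (-0.24 to 0.04) in PANC-1 cells. DHX58 encodes LGP2, the helicase that tunes the other two. It had 80 and 425 counts in MIA PaCa-2 cells and 72 and 112 in PANC-1 cells, a log2 fold change of 2.23 (1.91 to 2.62) in the former and 0.36 (-0.07 to 0.82) in the latter. All 3 helicases were thus called higher in MIA PaCa-2 cells, and none was called in PANC-1 cells or across both lines.

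MAVS, the adaptor of both helicases, had the highest level per length of the sensors and adaptors, a mean of 22.6 CPM per kb of exon. It had 7662 and 8210 counts in MIA PaCa-2 cells and 4057 and 5774 in PANC-1 cells, with log2 fold changes of -0.05 (-0.10 to -0.01) and 0.24 (0.19 to 0.30). In the arm for DNA, CGAS, which makes the second messenger cGAMP on DNA, had 360 and 560 counts in MIA PaCa-2 cells and 1219 and 1111 in PANC-1 cells and was called in neither line. STING1, the receptor of that messenger, had 123 and 195 counts in MIA PaCa-2 cells and 116 and 57 in PANC-1 cells. The PBS libraries of the lines were alike in STING1 and the CBC libraries stood on opposite sides of them, with a log2 fold change of 0.50 (0.18 to 0.85) in the MIA PaCa-2 line and a called change of -1.26 (-1.77 to -0.82) in PANC-1 cells. CGAS overlaps DDX43 on the opposite strand, a gene with 763 and 2066 counts in PANC-1 cells, and no source states whether counting used strand.

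Of the 5 IRF and STAT factors, IRF1 was called in MIA PaCa-2 cells and IRF7 in PANC-1 cells. IRF1, a factor of the interferon gamma response, had 408 and 1236 counts in MIA PaCa-2 cells and 246 and 444 in PANC-1 cells. Both CBC libraries were above their PBS library, by a log2 fold change of 1.44 (1.28 to 1.61) in MIA PaCa-2 cells, where it was called, against 0.58 (0.36 to 0.82) in PANC-1 cells, where it was not. IRF7, the factor that amplifies type I interferon, had no count in either MIA PaCa-2 library and 266 and 862 counts in PANC-1 cells. Its log2 fold change in PANC-1 cells was 1.42 (1.23 to 1.63), so IRF7 was called higher there, and the MIA PaCa-2 libraries allow at most 0.135 CPM of it against 11.7 CPM in PBS-treated PANC-1 cells. IRF3 had the highest mean level per length of this group over the 4 libraries, 20.9 CPM per kb, with 2446 and 2703 counts in MIA PaCa-2 cells and 1237 and 1186 in PANC-1 cells. STAT2, a subunit of the factor that binds the ISRE, lay at 30.5 and 48.8 CPM in MIA PaCa-2 while PANC-1 cells had 49.0 and 61.9 CPM. Its DNA-binding partner IRF9 lay at 3.01 and 3.52 CPM in the former and at 1.01 and 1.13 CPM in the latter. A protein-coding gene (ENSG00000259529) overlaps IRF9 by 5219 bases on the same strand. That gene had 86 and 54 counts in MIA PaCa-2 cells and 21 and 22 in PANC-1 cells. Counting could have dropped reads that the 2 genes share, so the IRF9 level may be too low. Neither STAT2 nor IRF9 nor IRF3 was called in a line.

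Of the interferons, IFNB1 had no count in any library. IFNL1, a type III interferon of epithelial cells, had 2 and 109 counts in MIA PaCa-2 cells and 1 count in each PANC-1 library. Only the CBC library of MIA PaCa-2 held it above the limit of 3 counts, and the count ratio scaled for library size was 49.0 with a counting interval from 13.2 to 410. The receptor chains differed little. IFNAR1 had 2238 and 1974 counts in MIA PaCa-2 cells and 1299 and 1960 in PANC-1 cells, log2 fold changes of -0.33 (-0.42 to -0.25) and 0.33 (0.23 to 0.43). IFNAR2 stayed between 402 and 460 counts in the 4 libraries.

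The absence of IFNB1 counts in MIA PaCa-2 cells extended along chromosome 9. Around it, a run of 28 neighbouring protein-coding genes, from SLC24A2 to TUSC1 over 6.17 Mb (19507452 to 25678444 of GRCh38), had no count in either MIA PaCa-2 library. This run was chosen after its values were seen. It holds 16 interferon genes as well as CDKN2A, CDKN2B and MTAP. The genes that flank it were read in MIA PaCa-2 cells, ACER2 with 15 and 33 counts and CAAP1 with 447 and 454. In PANC-1 cells 9 genes of the run had a count, with 2992 counts in the PBS library and 3567 in the CBC library, among them FOCAD with 904 and 954 and KLHL9 with 1297 and 1652. Of the 16 interferon genes of the run, IFNE, the epithelial type I interferon, was the one above the limit of 3 counts in PANC-1 cells, with 63 and 210. DNA copy number was not measured in these libraries.

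**Figure D2:**
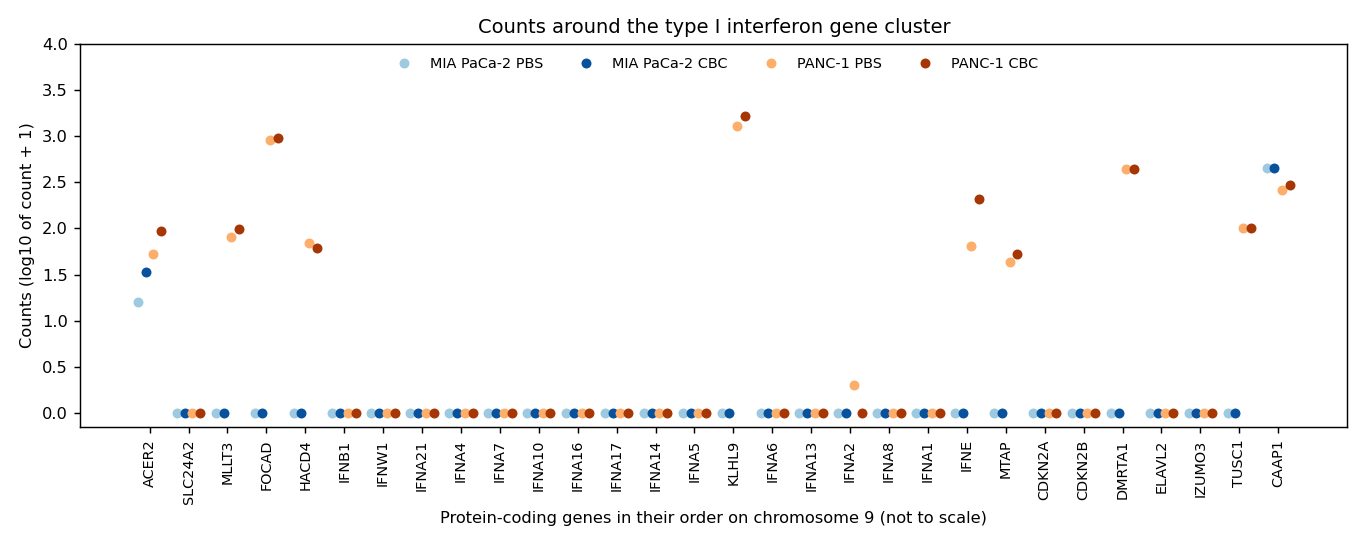
Counts of protein-coding genes around the type I interferon cluster in the 4 libraries, as log10 of the count plus 1, with genes in their order on the chromosome and not to scale. All 28 genes between ACER2 and CAAP1 lie at 0 in both MIA PaCa-2 libraries, while 9 of them have a count in PANC-1 cells.

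Members of the ISG15 system, in which the ubiquitin-like protein ISG15 is joined to other proteins, differed from one another. ISG15 itself had the highest mean level per length of the list, 67.6 CPM per kb. That mean rested on 194 CPM per kb in the CBC library of MIA PaCa-2, while IFITM3 was above ISG15 in the other 3 libraries. The rank also depends on exon length, 867 bases for ISG15 and 2844 for IFITM3. Without scaling for length, mean levels were 58.6 CPM for ISG15 and 116 CPM for IFITM3. ISG15 had 263 and 4166 counts in MIA PaCa-2 cells and 669 and 679 in PANC-1 cells. The CBC library of MIA PaCa-2 was far above the other 3, a log2 fold change of 3.82 (3.65 to 4.02), whereas the PANC-1 libraries gave -0.24 (-0.40 to -0.09). HERC5, the ligase that attaches ISG15, had 10 and 191 counts in MIA PaCa-2 cells and 176 and 232 in PANC-1 cells, log2 fold changes of 3.87 (3.19 to 5.19) and 0.13 (-0.16 to 0.42). Thus CBC-treated MIA PaCa-2 cells, at 7.72 CPM, reached the HERC5 level of PANC-1 cells, 7.74 CPM with PBS and 8.49 CPM with CBC. USP18, the protease that removes ISG15 and restrains the receptor, stayed between 60 and 76 counts in the 4 libraries.

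TRIM25, a ubiquitin ligase that acts on RIG-I, differed from the sensors in that it rose in both lines. TRIM25 (ENSG00000121060, chromosome 17, 56836387 to 56914080) had 2307 and 6159 counts in MIA PaCa-2 cells and 3576 and 12767 in PANC-1 cells. Each CBC library was above both PBS libraries, by log2 fold changes of 1.26 (1.19 to 1.33) and 1.57 (1.52 to 1.62) over its own control. Across both lines the log2 fold change was 1.42 with a standard error of 0.19 and an adjusted p of 0.0201 by edgeR's quasi-likelihood test. Its span overlaps DGKE on the opposite strand, which had 874 and 975 counts in MIA PaCa-2 cells and 1147 and 1395 in PANC-1 cells.

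The IFIT genes encode proteins that bind foreign RNA ends and lie side by side on chromosome 10. IFIT1 had 502 and 2744 counts in MIA PaCa-2 cells and 250 and 114 in PANC-1 cells. It was called in opposite directions, with a log2 fold change of 2.29 (2.16 to 2.44) in MIA PaCa-2 cells against -1.38 (-1.73 to -1.07) in PANC-1 cells, as happened in 0.328% of the 12502 genes tested in both lines. IFIT1 was the one member called in opposite directions. IFIT2 (ENSG00000119922, chromosome 10, 89283694 to 89309271) had 434 and 3680 counts in MIA PaCa-2 cells and 24 and 74 in PANC-1 cells. IFIT3 (ENSG00000119917, 89327307 to 89377473) had 305 and 3686 counts and 21 and 64 counts. Both genes were higher after CBC in each line, although in PANC-1 cells they lay at 1.06 and 0.92 CPM with PBS and at 2.71 and 2.34 CPM with CBC.

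The log2 fold change of IFIT2 was 2.93 (2.79 to 3.08) in MIA PaCa-2 cells against 1.29 (0.68 to 2.09) in PANC-1 cells, and across both lines 2.34 with a standard error of 0.40 (edgeR adjusted p = 0.0302). For IFIT3 it was 3.43 (3.27 to 3.61) and 1.27 (0.61 to 2.13), and 2.68 with a standard error of 0.50 across both lines (edgeR adjusted p = 0.0355). IFIT5, the fourth gene of the cluster, did not follow them. It stayed between 418 and 569 counts in the 4 libraries. The IFIT5 promoter holds the ISRE core, as do those of IFIT1 and IFIT3. LIPA lies opposite IFIT1, IFIT2 and IFIT3 and had fewer counts in the CBC library of MIA PaCa-2, 2573 against 4343. A long non-coding RNA (ENSG00000232110) overlaps IFIT2 on its own strand, with 301 and 122 counts in MIA PaCa-2 cells and none in PANC-1 cells.

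**Figure D3:**
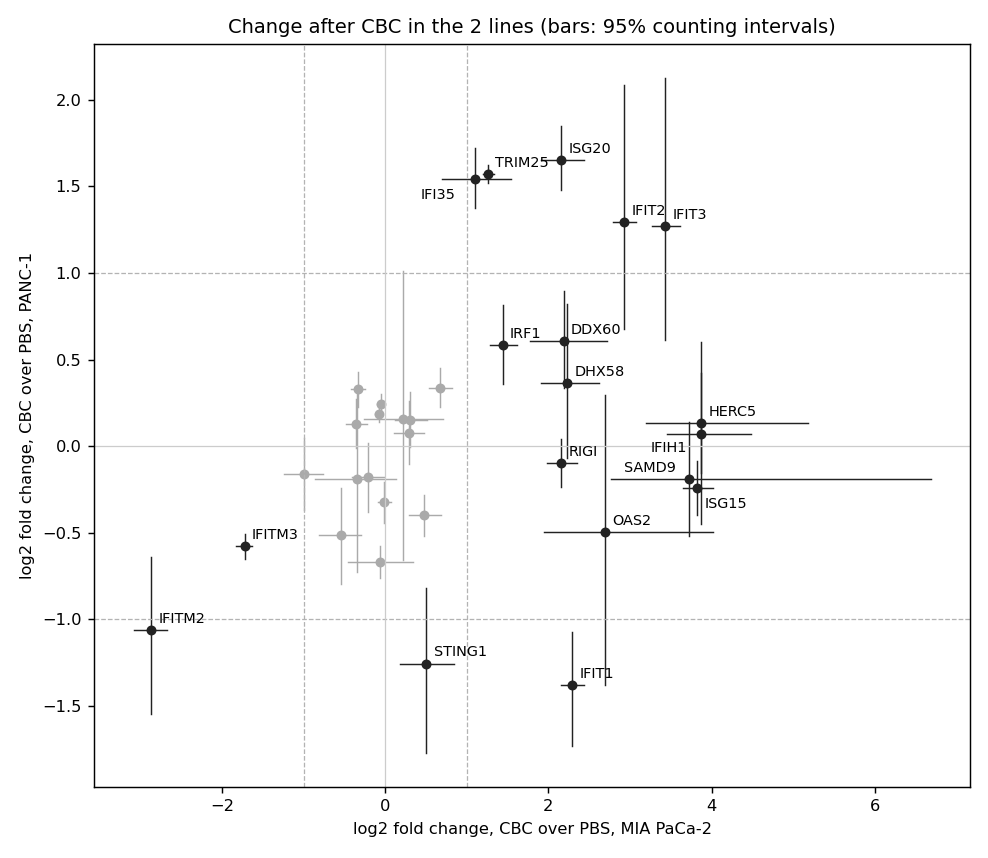
Log2 fold change of the 33 genes tested in both lines, MIA PaCa-2 on the horizontal and PANC-1 on the vertical axis, with bars for the 95% counting intervals, dashed lines at 1 and -1, and names for 18 genes called in a line. IFIT2, IFIT3, ISG20, IFI35 and TRIM25 lie past 1 on both axes, IFIT1 lies past 1 and past -1, and ISG15, HERC5, IFIH1 and SAMD9 lie near 4 and near 0.

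Levels per length show how the make-up of each family differed between the lines. The length of a gene joins the exons of all its transcripts, so the shares of genes within a family depend on it. The 4 IFIT genes together went from 16.4 to 93.1 CPM per kb in MIA PaCa-2 cells, and IFIT2 and IFIT3 went from 27.5% and 16.5% of that sum to 36.9% and 31.6%. In PANC-1 cells the sum was 7.30 with PBS and 6.72 with CBC, of which IFIT5 made up 61.5% and 70.4%. The OAS sum went from 1.43 to 15.2 CPM per kb in MIA PaCa-2 cells, and OASL made up 77.0% and 95.9% of it. In PANC-1 cells OAS3 made up 93.3% and 91.4% of a sum of 5.53 and 3.56 CPM per kb.

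OAS enzymes make 2',5'-linked oligoadenylate when they bind double-stranded RNA, and OASL is a relative without that activity which enhances RIG-I signalling. OASL (ENSG00000135114, chromosome 12, 121017763 to 121039246) had 155 and 2283 counts in MIA PaCa-2 cells and 6 and 27 in PANC-1 cells. Both CBC libraries were above their PBS library, but the PANC-1 libraries stayed under 1 CPM and OASL was therefore not tested in that line. Its log2 fold change was 3.71 (3.49 to 3.97) in MIA PaCa-2 cells, which is a count ratio of 13.2 (11.3 to 15.7) scaled for library size. The PANC-1 counts gave a smaller scaled ratio of 3.74 (1.51 to 11.1). Across both lines the log2 fold change was 3.31 with a standard error of 0.46 and an edgeR adjusted p of 0.0202.

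OAS1, OAS2 and OAS3, the enzymes proper, lie together on chromosome 12. Unlike OASL, none of them was higher after CBC in both lines, although OAS2 was called higher in MIA PaCa-2 cells. OAS1 had 8 and 22 counts in MIA PaCa-2 cells, under 1 CPM, and 63 and 26 in PANC-1 cells, a log2 fold change of -1.46 (-2.26 to -0.86) in PANC-1 cells. OAS2 had 10 and 83 counts in MIA PaCa-2 cells and 29 and 24 in PANC-1 cells, log2 fold changes of 2.69 (1.95 to 4.01) and -0.50 (-1.38 to 0.29). OAS3, the enzyme with the highest level in PANC-1 cells, had 105 and 112 counts in MIA PaCa-2 cells and 2120 and 1602 in PANC-1 cells. In the PBS libraries OAS3 was 19.7-fold higher in PANC-1 than in MIA PaCa-2 cells (16.2 to 24.3), and OASL was 26.4-fold lower in the same comparison. The OASL value rests on 6 counts in PANC-1 cells, a PANC-1 over MIA PaCa-2 ratio of 0.0379 (0.0137 to 0.0843).

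**Figure D4:**
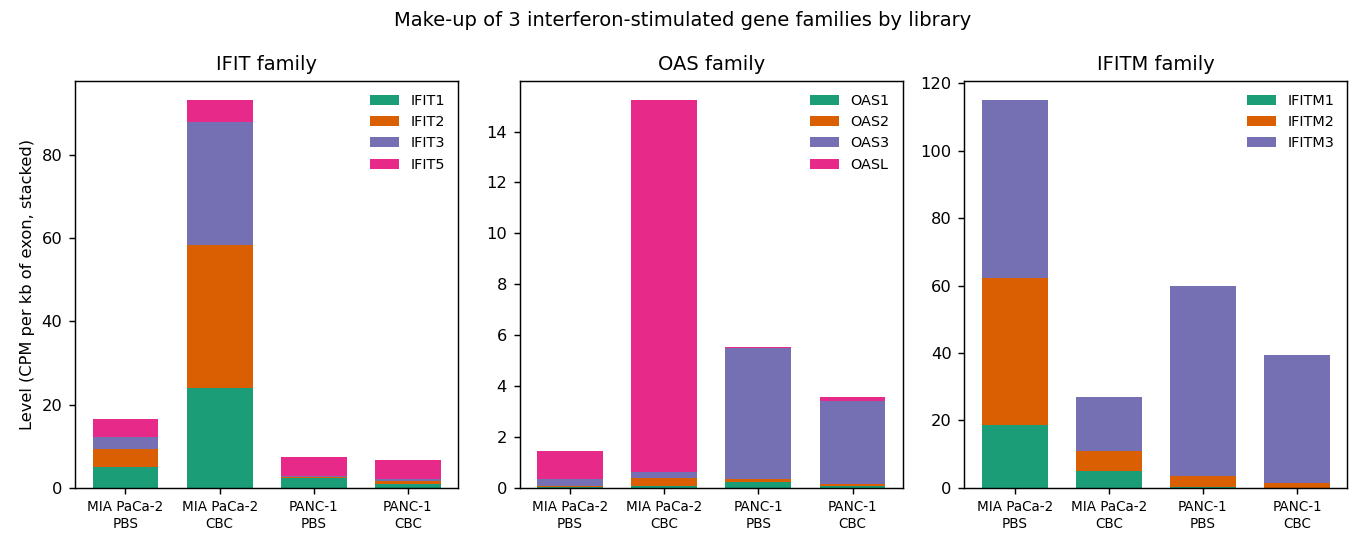
Level of the IFIT, OAS and IFITM families in each library in CPM per kb of exon, stacked by gene from 0. The IFIT and OAS bars are tallest in CBC-treated MIA PaCa-2 cells at 93.1 and 15.2, and the IFITM bars shrink from PBS to CBC in both lines.

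The IFITM genes encode membrane proteins that block the entry of viruses, and they lie side by side on chromosome 11. They were the 3 genes of the list called lower in MIA PaCa-2 cells. IFITM3 had 3328 and 1120 counts in MIA PaCa-2 cells and 3663 and 2946 in PANC-1 cells. IFITM2 had 1557 and 236 counts in MIA PaCa-2 cells and 117 and 66 in PANC-1 cells, and IFITM1 had 694 and 203 counts and 5 and 1 counts. Every CBC library was below its PBS library in all 3 genes. For IFITM1 in PANC-1 cells this rests on 5 and 1 counts, with a log2 counting interval from -8.15 to 0.57. The log2 fold changes in MIA PaCa-2 cells were -1.72 (-1.82 to -1.63) for IFITM3, -2.86 (-3.08 to -2.68) for IFITM2 and -1.92 (-2.16 to -1.70) for IFITM1. In PANC-1 cells they were -0.58 (-0.65 to -0.51) for IFITM3 and -1.07 (-1.55 to -0.64) for IFITM2, while IFITM1 stayed under 1 CPM. IFITM2 was thus called lower in both lines.

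None of the 3 was called across both lines, with edgeR adjusted p-values of 0.0865 for IFITM3, 0.0553 for IFITM2 and 0.0536 for IFITM1. DESeq2 with the same block gave adjusted p-values of 0.0259, 0.0100 and 0.0353 and called them lower. Over all alternatives with the block, the adjusted p ran from 0.0259 to 0.0881 for IFITM3, from 0.0100 to 0.0568 for IFITM2 and from 0.0282 to 0.0539 for IFITM1. The summed level of the family went from 115 to 26.8 CPM per kb in MIA PaCa-2 cells. The PANC-1 sums were 60.0 with PBS and 39.4 with CBC, of which IFITM3 made up 94.4% and 96.1%. With PBS, the lines had similar levels of IFITM3, 150 and 161 CPM, while IFITM2 was 13.6-fold lower in PANC-1 cells and IFITM1 142-fold lower. The IFITM1 value rests on 5 counts in PANC-1 cells, a PANC-1 over MIA PaCa-2 ratio of 0.00705 (0.00228 to 0.0165). The 3 IFITM genes are close copies of one another, so that the counting could have split or dropped reads they share.

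ISG20, an exonuclease that degrades RNA, rose in both lines. ISG20 (ENSG00000172183, chromosome 15, 88635670 to 88656483) had 145 and 726 counts in MIA PaCa-2 cells and 304 and 1155 in PANC-1 cells. Each CBC library exceeded both PBS libraries, by log2 fold changes of 2.16 (1.91 to 2.44) and 1.65 (1.48 to 1.85) over its own control, and 1.91 with a standard error of 0.28 across both lines (edgeR adjusted p = 0.0223). IFI35, a protein that pairs with NMI, had 68 and 164 counts in MIA PaCa-2 cells and 355 and 1247 in PANC-1 cells. IFI35 was called higher in each line, at 1.10 (0.70 to 1.55) and 1.54 (1.38 to 1.72), but missed the threshold across both lines with an edgeR adjusted p of 0.0544. Higher in both lines were thus 5 of the 33 genes tested in both, TRIM25, IFIT2, IFIT3, ISG20 and IFI35, beside 3.33% of all genes. Of these, IFIT3 passed the PANC-1 filter through the CBC library alone, so its direction there was fixed by the filter.

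RSAD2, which encodes the radical enzyme viperin that makes a chain-terminating nucleotide, was almost confined to 1 library. It had 1 and 411 counts in MIA PaCa-2 cells and none in PANC-1 cells. The count ratio in MIA PaCa-2 cells was 370 with a counting interval from 66.0 to 14630, and its log2 fold change of 7.03 depended on the prior count, with 7.99 at a prior count of 0.5 and 6.07 at 5. CMPK2, a kinase of mitochondrial nucleotides that neighbours RSAD2, had 0 and 5 counts in MIA PaCa-2 cells and 4 and 1 in PANC-1 cells. SAMD9, a growth-restraining effector against poxviruses, had 3 and 69 counts in MIA PaCa-2 cells and 153 and 161 in PANC-1 cells. With PBS the lines lay far apart in SAMD9, and the count ratio of CBC over PBS was 20.7 (6.79 to 103) in MIA PaCa-2 cells against 0.876 (0.697 to 1.10) in PANC-1 cells. DDX60, a helicase linked to RIG-I, had 46 and 240 counts in MIA PaCa-2 cells and 165 and 303 in PANC-1 cells. Its log2 fold change was 2.19 (1.77 to 2.72) in the former, where it was called, and 0.61 (0.33 to 0.89) in the latter.

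IFI44, a cytosolic protein of the IFI group, had 10 and 80 counts in MIA PaCa-2 cells and 2 in each PANC-1 library, a log2 fold change of 2.64 (1.89 to 3.96) in MIA PaCa-2 cells. Its neighbour on chromosome 1, IFI44L, had no count in any library. IFI6, which protects cells against death at mitochondria and the ER, had the highest mean level per length of the IFI genes over the 4 libraries, although IFI35 was above it in CBC-treated PANC-1 cells. It had 293 and 223 counts in MIA PaCa-2 cells and 241 and 202 in PANC-1 cells. Both log2 fold changes of IFI6 were negative and within the thresholds, -0.54 (-0.81 to -0.29) and -0.52 (-0.80 to -0.24). The IFI6 promoter holds 3 ISRE cores. Of the MX genes, whose products are dynamin-like GTPases that trap viral particles, MX1 had 36 and 80 counts in MIA PaCa-2 cells and 6 and 14 in PANC-1 cells, and MX2 had 376 and 519 counts and 558 and 746. MX1 lay just under the threshold in MIA PaCa-2 cells with a log2 fold change of 0.96 (0.41 to 1.61), and MX2 gave 0.31 (0.12 to 0.51) and 0.15 (-0.01 to 0.31).

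The remaining genes were not called in a line. ADAR, the enzyme that edits adenosine to inosine in double-stranded RNA, was the most abundant of them in CPM, between 338 and 383 CPM in the 4 libraries, with log2 fold changes of -0.08 (-0.12 to -0.03) and 0.18 (0.14 to 0.23). PARP9 and DTX3L, a pair of partners in one ubiquitin ligase complex whose genes overlap by 240 bases, lie back to back on chromosome 3. PARP9 had 422 and 235 counts in MIA PaCa-2 cells and 368 and 395 in PANC-1 cells, and its log2 fold change of -0.99 (-1.23 to -0.76) in MIA PaCa-2 cells lay just within the threshold. DTX3L had 1055 and 917 counts and 733 and 964 counts in the same order. BST2, which encodes the virus tether tetherin, had 40 and 28 counts in MIA PaCa-2 cells and 9 and 2 in PANC-1 cells. In PANC-1 cells BST2 stayed under 1 CPM and was therefore not tested.

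Another 76 genes of the pathway, from a list that holds kinases and adaptors, receptor chains, brakes and further interferon-stimulated genes, were read beside these. Of the 54 tested in MIA PaCa-2 cells 11 were called higher and 5 lower (20.4% and 9.26%, beside 11.5% and 8.97% of all genes), and in PANC-1 cells 7 of 56 were called higher and 1 lower (12.5% and 1.79%, beside 7.71% and 7.03%). The kinases JAK1 and TYK2 were called in neither line, with log2 fold changes of 0.42 and 0.09 for JAK1 and 0.22 and -0.03 for TYK2 in MIA PaCa-2 and PANC-1 cells. Across both lines 3 of the 58 tested were called by edgeR's quasi-likelihood test, 2 higher and 1 lower, beside 1.92% and 2.12% of all genes. LAMP3, a membrane protein of lysosomes, rose across both lines, with 2 and 325 counts in MIA PaCa-2 cells and 86 and 2331 in PANC-1 cells (adjusted p = 0.0104). IRF5, a factor that acts below toll-like receptors, also rose, with 191 and 707 counts in the former line and 27 and 144 in the latter (adjusted p = 0.0327). APOBEC3B, a cytidine deaminase, fell, with 1484 and 688 counts and 675 and 256 counts in the same order (adjusted p = 0.0305).

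Further genes of that list are named here after their values were seen. Called lower in MIA PaCa-2 cells, beside APOBEC3B, were SAMHD1 (1503 and 646 counts), APOBEC3C (2821 and 1287), TRIM14 (1434 and 767) and IKBKE (62 and 22). SAMHD1, APOBEC3C, TRIM14 and IKBKE were not called in PANC-1 cells, with log2 fold changes of -0.89, -0.37, -0.59 and -0.44 there. IFI16, PARP12, HERC6, TRIM21, PARP14 and NLRC5 were called higher in MIA PaCa-2 cells. Their log2 fold changes there were 1.69, 1.66, 1.66, 1.26, 1.15 and 1.10, and IFI16 was also called higher in PANC-1 cells (1.03). SOCS1, the inhibitor of JAK kinases, had 28 and 387 counts in MIA PaCa-2 cells and 43 and 164 in PANC-1 cells, called higher in each line, with an edgeR adjusted p of 0.0503 across both. IFNL2 and IFNL3, near-identical copies next to IFNL1 that can share reads, had 1 and 58 and 0 and 57 counts in the MIA PaCa-2 libraries and no more than 1 in a PANC-1 library. CXCL10 and CXCL11, chemokines of the interferon response, had 0 and 13 and 0 and 7 counts in MIA PaCa-2 cells and none in PANC-1 cells. HELZ2, a helicase co-activator, was called in PANC-1 cells alone, with 1501 and 7013 counts there and 1708 and 2465 in MIA PaCa-2 cells, and the difference between the lines was not tested.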

How the data were processed

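Polyadenylated RNA of both lines was sequenced by the authors in 1 library per condition (NEBNext Ultra II Directional kit, paired ends). Per the labels and the methods, the authors used cutadapt 2.7 for trimming, STAR for alignment to GRCh38 and HTSeq for counts per Ensembl gene. The aligner's version and the strand setting are not given in the sources used here. The deposited raw counts were analysed. The deposited CPM signal of each library equals those counts over TMM-scaled library sizes (largest relative difference 6.84e-09).

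Symbols matched 57392 of 58233 identifiers, and positions and exon lengths came from GENCODE release 44 on GRCh38. Exon length joined the exons of all transcripts of a gene, so it can exceed the length of the transcript expressed. Ranks and shares in CPM per kb depend on that choice. Log2 fold changes, the threshold of 1 and TMM over 4 libraries followed the study's methods (edgeR 4.0.16, R 4.3.3, prior count 2). The filter of 1 CPM was added here. Intervals are exact binomial (Clopper-Pearson, 95%, scipy 1.17.1) and cover counting error only, since each condition had 1 library. Reads carried no molecular identifiers, so copies of the same molecule could not be told apart. The model across lines used glmQLFit and glmQLFTest with Benjamini-Hochberg adjustment, on genes kept by filterByExpr. Pairing comes from the cell lines, and same-line deviations from the treatment means correlated at 0.922 across genes. The lines differ in dose and are not replicate cultures of 1 condition. The script was tested on simulated counts.

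The genes and lists were chosen with earlier results of these data known. Values were given for each gene called in a line and for the gene with the highest mean CPM per kb of each role group. Of the other pathway genes, those called in the same direction in both lines with a mean of at least 10 CPM were named, with JAK1 and TYK2. A further gene chosen by name beside these is not reported here. Promoter sequences are RefSeq's on GRCh38.p14, and the 12 shown equal the genome. Alternatives changed the scaling, the filter, the prior count, the block and the tool (DESeq2 1.42.0).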

Additional observations from a re-analysis of the deposited data

Results flagged for a closer look

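Of the 33 genes tested in both lines, 7 had log2 fold changes of opposite sign in the lines, with counting intervals on opposite sides of 0. The share of all genes that meet this rule was not counted, so 7 of 33 cannot be called unusual. The intervals cover counting error only and are narrow for genes with many counts, so small changes can meet the rule. For 3 of them, called in at least 1 line, the PANC-1 minus MIA PaCa-2 difference of the log2 fold changes was -4.07 for ISG15 (263 and 4166 counts with PBS and CBC in MIA PaCa-2, 669 and 679 in PANC-1 cells), -3.67 for IFIT1 (502 and 2744, 250 and 114 counts) and -1.76 for STING1 (123 and 195, 116 and 57 counts). The other 4 were called in neither line, with differences of -0.88 for CGAS, 0.66 for IFNAR1, 0.30 for MAVS and 0.26 for ADAR. In MIA PaCa-2 cells the log2 fold change of MAVS was 0.01 when library totals alone set the scale, so its sign there turned with the scaling. With 1 library per line and treatment none of these differences was tested, and the doses differed between the lines.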

How the results depend on the processing

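The counts of genes called within a line kept their balance of directions in MIA PaCa-2 cells, with 16 to 24 called over all alternatives against 22. In PANC-1 cells the whole counting interval lay past a 2-fold change for 5 genes (4 higher and 1 lower) against 10 called. With no filter on low counts, 15 were called there, 7 higher and 8 lower, and the median log2 fold change was -0.092 over 44 genes, against 0.08. Shares of all genes called were not counted for the alternatives within a line, except at 1 CPM or more in both MIA PaCa-2 libraries. In MIA PaCa-2 cells the median was 0.68 with no filter (45 genes) and also 0.68 with a filter of 5 CPM (31 genes), against 0.82.

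Across both lines 5 genes of the list were called. Without the replicate block for the cell line 0 were called, with 2 of them and 355 of all genes at an unadjusted p under 0.05. DESeq2 with the block called 9 (6 higher and 3 lower, among 1312 genes in all against 662), and the test with no filter beyond 10 counts called 11 (8 higher and 3 lower, among 1110 genes). Library totals gave 6, among 731 genes in all, and DESeq2 size factors 5, among 634. The causes of these changes were not tested.

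Of 450 values of single genes under an alternative, none changed sign past the threshold and 3 crossed it, namely MX1 in MIA PaCa-2 cells (1.03 with library totals), PARP9 in MIA PaCa-2 cells (-1.01 with DESeq2 size factors) and IFITM2 in PANC-1 cells (-0.997 with library totals). Leaving out a line leaves no residual degree of freedom, so each line's own values stand without a test. The spread between cultures of 1 line cannot be measured here.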
